A study of Mus musculus with 9 samples.

Results

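The nuclear-encoded genes of respiratory chain complexes I, III and IV, of cytochrome c and of the ATP synthase (complex V) were measured in macrophages after lipopolysaccharide (LPS). Members were the protein-coding genes whose symbols carry the family names of these complexes (Ndufa, Ndufb, Ndufc, Ndufs and Ndufv with a number, Uqcr, Uqcc, Cyc1, Cycs, Cox4 to Cox8, Atp5), without pseudogenes. This gave 85 of the 22165 gene rows: 35 for complex I, 12 for complex III with its Uqcc assembly factors, 1 for cytochrome c, 20 for complex IV and 17 for complex V. A filter on low counts left 78 of the 85 for testing, among 10781 tested genes in all. The rule reads gene symbols and no measured value, though earlier results of these data were known when it was set.

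The cells were bone marrow-derived macrophages, grown in culture from the marrow of C57BL/6N mice aged 6 to 16 weeks, and all 9 libraries came from cells given LPS at 100 ng/mL for 24 h. The groups were Irg1KO+ITA (Irg1 knockout, with 1 mM itaconate added 4 h after LPS), Irg1KO (the knockout without itaconate) and WT (wild type), with 3 libraries each. The Irg1 gene, Acod1 in the current nomenclature, codes for the itaconate-producing enzyme, and no library without LPS was analysed here. The labels do not say whether replicates came from separate mice or cultures, so p-values measure only the spread between these libraries, which may be technical.

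Complex I takes electrons from NADH, complex III passes them through cytochrome c to complex IV, which reduces oxygen, and complex V uses the proton gradient that these complexes build to make ATP. Most subunits are encoded in the nucleus, and a small set of core subunits is encoded in mitochondrial DNA. In macrophages, LPS is known to shift ATP production from respiration toward glycolysis, and itaconate inhibits complex II, succinate dehydrogenase, another entry point of electrons.

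Gene reads per library numbered 7361671 to 20430359, so that 3 reads correspond to 0.147 to 0.408 CPM (reads scaled to a common library total). Irg1 itself went against the labels of 4 libraries, which therefore count as doubtful in every comparison. It had 94, 8 and 60716 reads in Irg1KO+ITA replicates 1, 2 and 3, 154, 170 and 44920 in those labelled Irg1KO, and 94, 117 and 31169 in those labelled WT. The 4 libraries are Irg1KO+ITA replicate 3, Irg1KO replicate 3 and WT replicates 1 and 2, and which exons the knockout lacks is not in the labels. In every group Irg1 was high in replicate 3 alone, so it followed the replicate number and not the group. The reason was not tested, and the libraries whose Irg1 reads match their labels are not thereby shown to be labelled rightly. Group names below are those of the labels. A number before the barcode in the labels is called the pool below, though no label defines it. It was 1 for all WT libraries and Irg1KO replicates 1 and 2, and 2 for Irg1KO replicate 3 and Irg1KO+ITA replicate 1. Irg1KO+ITA replicate 2 had the number 3 and Irg1KO+ITA replicate 3 the number 4. Irg1KO+ITA replicate 3 also stood apart in its reads outside annotated genes, at 33.7% against 23.1% to 28.4% elsewhere. The macrophage label was checked on 8 marker genes, all present, whose summed level was 3675 to 7257 CPM in Irg1KO+ITA, 6697 to 7163 CPM in Irg1KO and 7438 to 9694 CPM in WT libraries. The lowest of these was Irg1KO+ITA replicate 3. Cd3e, Cd8a and Cd79a, defining genes of T and B cells, had 0 reads in every library, and Flt3 and Ly6g, of dendritic cells and neutrophils, were at most 0.295 CPM. Other markers of these lists were higher: Cd4 had 0.439 to 1.20 CPM, Ccr7 0.859 to 2.43 CPM and Retnlg up to 2.52 CPM. Over the libraries, summed dendritic cell markers were 0.937 to 2.43 CPM, T cell markers 0.439 to 1.32 CPM and B cell markers 0 to 0.529 CPM. The neutrophil genes S100a8 and S100a9, which macrophages can also express, carried most of a neutrophil sum of 78.9 to 214 CPM in Irg1KO+ITA, 161 to 211 CPM in Irg1KO and 232 to 245 CPM in WT. A fibroblast sum led by Col1a2 was 153 to 249 CPM in Irg1KO+ITA, 176 to 206 CPM in Irg1KO and 164 to 244 CPM in WT. The part of such cells in the results was not tested, and in bulk RNA fewer cells of a type and less RNA per cell cannot be told apart.

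Most respiratory chain genes varied together from library to library, and the libraries labelled Irg1KO+ITA lay farther apart than the group means did. Their level was measured as the mean over the 78 tested members of log2(CPM + 1), each gene centred on its own mean over the 9 libraries. It was 0.17, -0.06 and -0.61 in Irg1KO+ITA replicates 1, 2 and 3, -0.15, -0.04 and 0.13 in Irg1KO and 0.15, 0.16 and 0.25 in WT. The 3 WT libraries lay close together, Irg1KO+ITA replicate 1 overlapped them, and Irg1KO+ITA replicate 3 was far below all others. All WT libraries share pool 1, whereas Irg1KO+ITA replicate 3 is the only library of pool 4 and Irg1KO+ITA replicate 2 that of pool 3. What belongs to the pool and what to these libraries cannot be told apart. The group means were -0.17 ± 0.40 for Irg1KO+ITA, -0.02 ± 0.14 for Irg1KO and 0.19 ± 0.05 for WT (SD, n = 3 each). Without its replicate 3, Irg1KO+ITA had 0.05 ± 0.16 (SD, n = 2). As a share of all gene reads, the members took 0.837%, 0.665% and 0.554% in Irg1KO+ITA, 0.690%, 0.736% and 0.835% in Irg1KO and 0.823%, 0.867% and 0.877% in WT. Irg1KO+ITA replicate 3 was the lowest library for 55 of the 78 members (70.5%), where it was the lowest for 26.0% of all tested genes.

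**Figure D1:**
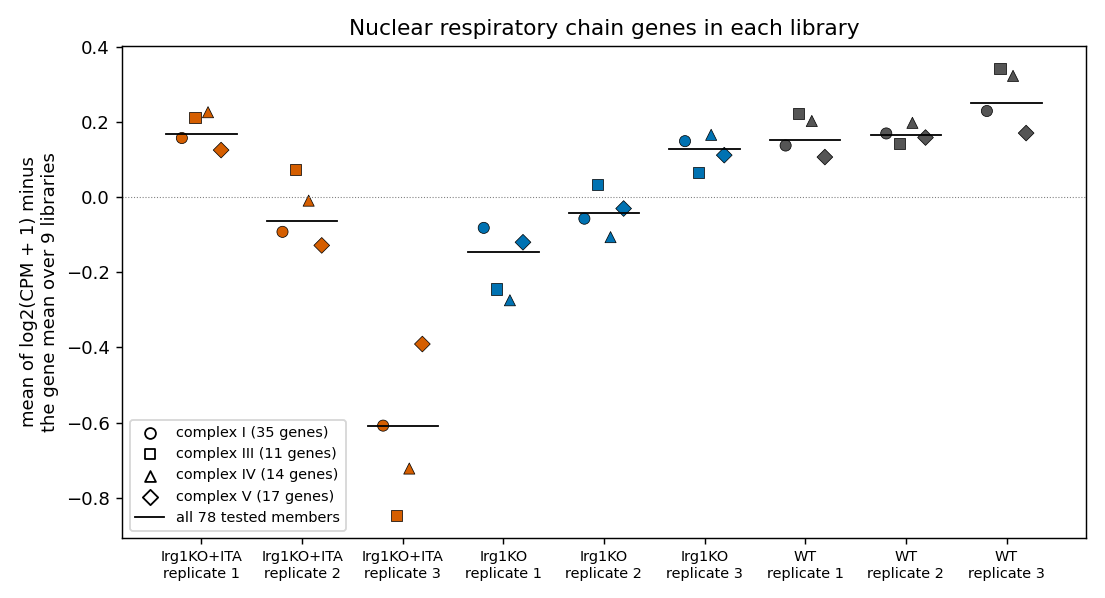
Mean of log2(CPM + 1) minus the gene mean over 9 libraries (vertical axis) for each library (horizontal axis, orange Irg1KO+ITA, blue Irg1KO, grey WT). Symbols are the 4 complexes and the black bars all 78 tested members, which lie at -0.61 in Irg1KO+ITA replicate 3 and at 0.15 to 0.25 in WT.

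Genes with short transcripts showed nearly the same course over the libraries. Among the tested members the median longest coding transcript was 849.5 nt (GENCODE), against 3170 nt for the other tested genes. In 436 other tested genes under 1000 nt that encode no ribosomal protein, the median of the same centred level was 0.20, -0.01 and -0.47 in Irg1KO+ITA, -0.18, 0.01 and 0.09 in Irg1KO and 0.11, 0.14 and 0.21 in WT. In 2300 other genes over 5000 nt it ran the opposite way, at -0.16, 0.04 and 0.23 in Irg1KO+ITA, 0.15, 0.01 and -0.07 in Irg1KO and -0.05, -0.04 and -0.12 in WT. Of 31 tested members of 1000 nt or more, 23 were lower in Irg1KO than in WT (median log2 fold change -0.23) and 25 in Irg1KO+ITA (-0.37). Of 47 shorter members, 42 were lower than in WT in Irg1KO (-0.28) and 39 in Irg1KO+ITA (-0.27). No share was computed over all other genes of 1000 nt or more, so the first counts have no matched background. The part of transcript length in the respiratory chain values was not tested.

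**Figure D2:**
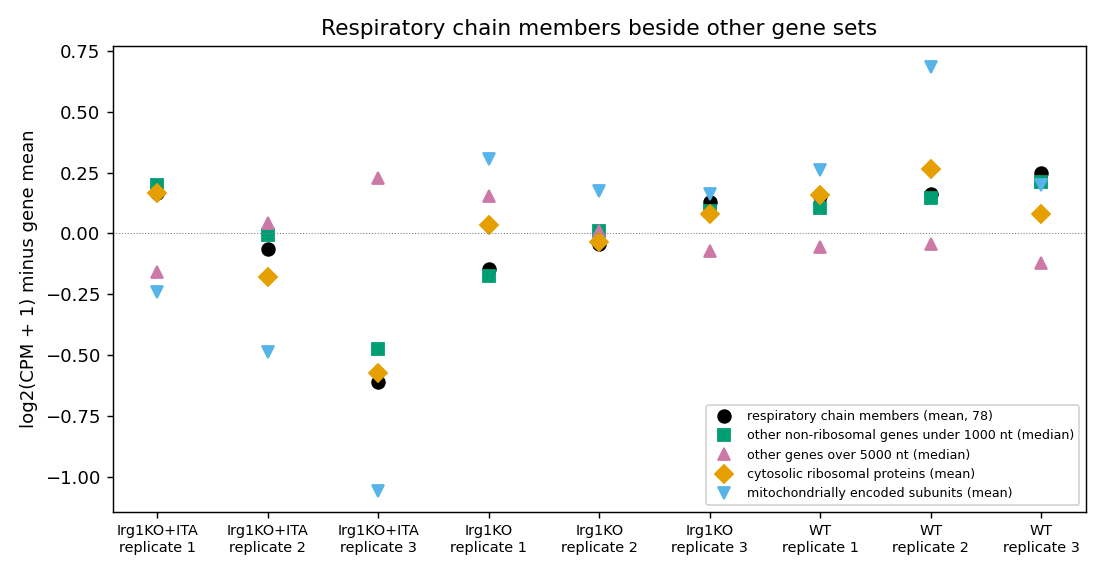
Centred log2(CPM + 1) (vertical axis) in each library (horizontal axis) for the 78 tested members, other short and long transcripts, cytosolic ribosomal proteins and mitochondrially encoded subunits. Members and other short transcripts lie close together in every library, and long transcripts run the opposite way, at 0.23 in Irg1KO+ITA replicate 3.

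The comparison of Irg1KO with WT asks, if the labels hold, what loss of the itaconate-producing enzyme does after LPS. No member passed edgeR's quasi-likelihood test (Benjamini-Hochberg adjusted over all tested genes, threshold 0.05), and percent called over all genes was likewise 0.0 (smallest adjusted p among members = 0.995). In sign, 65 of the 78 tested members (83.3%) were lower in Irg1KO than in WT, where 51.1% of all tested genes were lower. Of the 436 other non-ribosomal genes under 1000 nt, 319 (73.2%) were lower in Irg1KO, with a median log2 fold change of -0.21, and of the 2300 other genes over 5000 nt 826 (35.9%) were, with a median of 0.13. The members' median log2 fold change was -0.26, and that of all tested genes was -0.01. The median was -0.29 for complex III (10 of 11 lower), -0.34 for complex IV (13 of 14 lower), -0.24 for complex I (28 of 35 lower) and -0.20 for complex V (14 of 17 lower). At an unadjusted p under 0.05 stood 1 lower member, Ndufv1, where 0.677% of all genes were lower at that threshold, and 1 higher member, Ndufc2, where 2.45% were higher.

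The groups did not overlap, with Irg1KO lower, for 15 of the 78 tested members, where this held for 5.76% of all tested genes. It also held for 48 of 436 other non-ribosomal genes under 1000 nt and for 15 of 85 cytosolic ribosomal proteins. With Irg1KO higher, the groups did not overlap for 2 members, Atp5f1 and Atp5s, where this held for 4.85% of all tested genes. Among the 15 lower members were Ndufa1, Ndufa11, Ndufa13, Ndufb8, Ndufb11, Ndufs3 and Ndufv1 of complex I, Uqcrh of complex III, Cox6c, Cox7a2l and Cox7b of complex IV and Atp5b, Atp5j2 and Atp5mpl of complex V. The members' median was -0.15 without Irg1KO replicate 1 (64 of 78 lower). It was -0.36 (64 of 79 lower) without the 4 doubtful libraries, which leaves a single WT library, and -0.33 (67 of 79 lower) within pool 1, the pool that holds Irg1KO replicates 1 and 2 and all WT libraries.

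**Figure D3:**
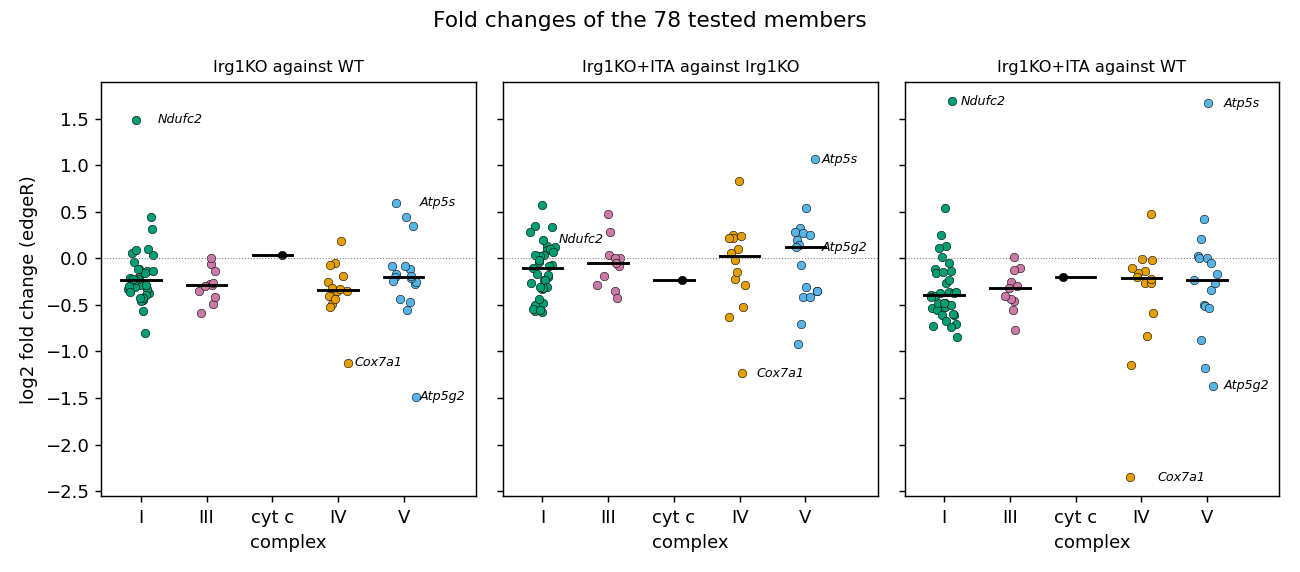
log2 fold change (vertical axis, edgeR) of each of the 78 tested members by complex (horizontal axis) in the 3 comparisons, with the median of each complex as a bar. Medians of complexes I, III, IV and V lie between -0.34 and -0.20 in Irg1KO against WT and between -0.40 and -0.21 in Irg1KO+ITA against WT, and no point passed the test.

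The comparison of Irg1KO+ITA with Irg1KO asks, if the labels hold, for the effect of itaconate on knockout cells. Percent called was 0.0 over all genes and no member was called by edgeR (smallest adjusted p = 0.523). The members were split, with 44 of 78 lower in Irg1KO+ITA (51.6% of all tested genes were lower) and a median log2 fold change of -0.07, beside -0.02 for all tested genes. The median was -0.10 for complex I (22 of 35 lower), -0.05 for complex III (6 of 11), 0.02 for complex IV (7 of 14) and 0.12 for complex V (8 of 17). The direction turned on single libraries: the members' median was 0.11 without Irg1KO+ITA replicate 3 (30 of 78 lower), 0.02 without Irg1KO replicate 3 (37 of 78), -0.32 without Irg1KO+ITA replicate 1 (58 of 78) and 0.18 without the 4 doubtful libraries (30 of 79). It was 0.06 (31 of 78 lower) with the pool as a term, a fit in which only pool 2 holds libraries of both groups.

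At an unadjusted p under 0.05 stood 1 lower member, Atp5j, where 4.11% of all tested genes were lower at that threshold. So did 2 higher members, Cox5a and Ndufb8, where 4.19% of all tested genes were higher. The groups did not overlap for 3 lower members, Ndufv2, Cox7a1 and Atp5j, where this held for 5.29% of all tested genes. They did not overlap for 2 higher members, Cox5a and Ndufb8, where this held for 5.61%.

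The comparison of Irg1KO+ITA with WT asks, if the labels hold, how far treated knockout cells are from wild type. It shares its libraries with both comparisons above. Percent called was again 0.0 over all genes and no member was called by edgeR (smallest adjusted p = 0.515). Of 78 members, 64 (82.1%) were lower in Irg1KO+ITA, beside 50.9% of all tested genes, with a median log2 fold change of -0.30 beside -0.01 for all tested genes. Of the other non-ribosomal genes under 1000 nt, 305 of 436 were lower in Irg1KO+ITA (median -0.21), and of those over 5000 nt 905 of 2300 (median 0.12). The median was -0.40 for complex I (29 of 35 lower), -0.31 for complex III (10 of 11), -0.21 for complex IV (13 of 14) and -0.23 for complex V (11 of 17). Without Irg1KO+ITA replicate 3 the members' median was -0.11 (48 of 78 lower), and complex IV stood at 0.03. Without Irg1KO+ITA replicate 1 the members' median was -0.50 (67 of 78 lower), and without the 4 doubtful libraries it was -0.19 (58 of 79 lower). No pool holds libraries of both groups, so no value within a pool exists.

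Unadjusted p was under 0.05 for 7 lower members, Ndufa1, Ndufa9, Cox6c, Cox7a1, Cox8a, Atp5b and Atp5j, where this held for 3.56% of all tested genes. It was for 2 higher members, Ndufc2 and Atp5s, where this held for 5.32%. The groups did not overlap for 13 lower members, where this held for 7.25% of all tested genes. It also held for 60 of 436 other non-ribosomal genes under 1000 nt and for 14 of 85 cytosolic ribosomal proteins. For 2 higher members, Cox5a and Ndufb8, the groups did not overlap either, where this held for 7.3% of all tested genes. The 13 lower members were the 7 above with Ndufa6, Ndufa11, Ndufs6, Ndufv3, Cox7b and Atp5j2.

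In complex I, the 7 core subunits carry the redox centres, and 5 of the 7 were lower in Irg1KO than in WT. Ndufv1, which binds NADH and the flavin (minus strand of chromosome 19, 4007384 to 4012806 in GRCm38), had 24.3, 33.8 and 12.1 CPM in Irg1KO+ITA, 15.8, 26.8 and 24.6 CPM in Irg1KO and 37.8, 32.1 and 47.1 CPM in WT. The 3 Irg1KO values lay below all WT values, a log2 fold change of -0.80 ± 0.36 (SE, edgeR adjusted p = 0.995). The core iron-sulfur subunit Ndufs1 went the other way, at 34.4, 45.5 and 74.9 CPM in Irg1KO+ITA, 72.5, 36.7 and 35.3 CPM in Irg1KO and 28.4, 33.8 and 44.3 CPM in WT. It was highest in Irg1KO+ITA replicate 3 and Irg1KO replicate 1, and all 3 groups overlapped. Ndufv2, another iron-sulfur core subunit, had 57.8, 48.8 and 41.8 CPM in Irg1KO+ITA, 84.0, 66.2 and 67.3 CPM in Irg1KO and 66.9, 50.2 and 57.3 CPM in WT, with Irg1KO+ITA below Irg1KO in all libraries (-0.55 ± 0.27, adjusted p = 0.604).

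Of the 28 accessory subunits, which surround the core, 23 were lower in Irg1KO than in WT and 23 lower in Irg1KO+ITA than in WT. Ndufa1, a small membrane-arm subunit, had 55.6, 39.5 and 24.9 CPM in Irg1KO+ITA, 62.2, 51.9 and 55.5 CPM in Irg1KO and 70.3, 67.7 and 76.8 CPM in WT. Every library labelled Irg1KO+ITA or Irg1KO lay below every library labelled WT. Ndufb8, a subunit of the distal membrane arm, had 35, 38.6 and 38.5 CPM in Irg1KO+ITA, 21.8, 24.6 and 28.8 CPM in Irg1KO and 29.9, 34.8 and 29.4 CPM in WT. Irg1KO+ITA was highest and Irg1KO lowest without overlap, each only narrowly apart from WT, with 0.58 ± 0.25 for Irg1KO+ITA against Irg1KO (adjusted p = 0.589). A predicted gene overlaps Ndufb8 on the same strand, so its reads may be shared.

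Ndufc2 (ENSMUSG00000030647.8, plus strand of chromosome 7, 97400003 to 97407802), an accessory membrane-arm subunit, had the highest log2 fold change of the complex I genes in both comparisons with WT. It had 139, 159 and 1049 CPM in Irg1KO+ITA, 571, 116 and 485 CPM in Irg1KO and 135, 127 and 155 CPM in WT. Irg1KO+ITA replicate 3 and Irg1KO replicates 1 and 3 were high, the 6 other libraries lay between 116 and 159 CPM, and all 3 groups overlapped. The log2 fold change was 1.49 ± 0.67 for Irg1KO against WT (adjusted p = 0.995) and 1.69 ± 0.67 for Irg1KO+ITA against WT (adjusted p = 0.542). The second of these was 0.10 without Irg1KO+ITA replicate 3. With no filter on low counts Ndufc2 was the single member called in any setting, in Irg1KO+ITA against WT (1.67 ± 0.43, edgeR adjusted p = 0.0438), where 0.616% of 14936 genes were called.

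**Figure D4:**
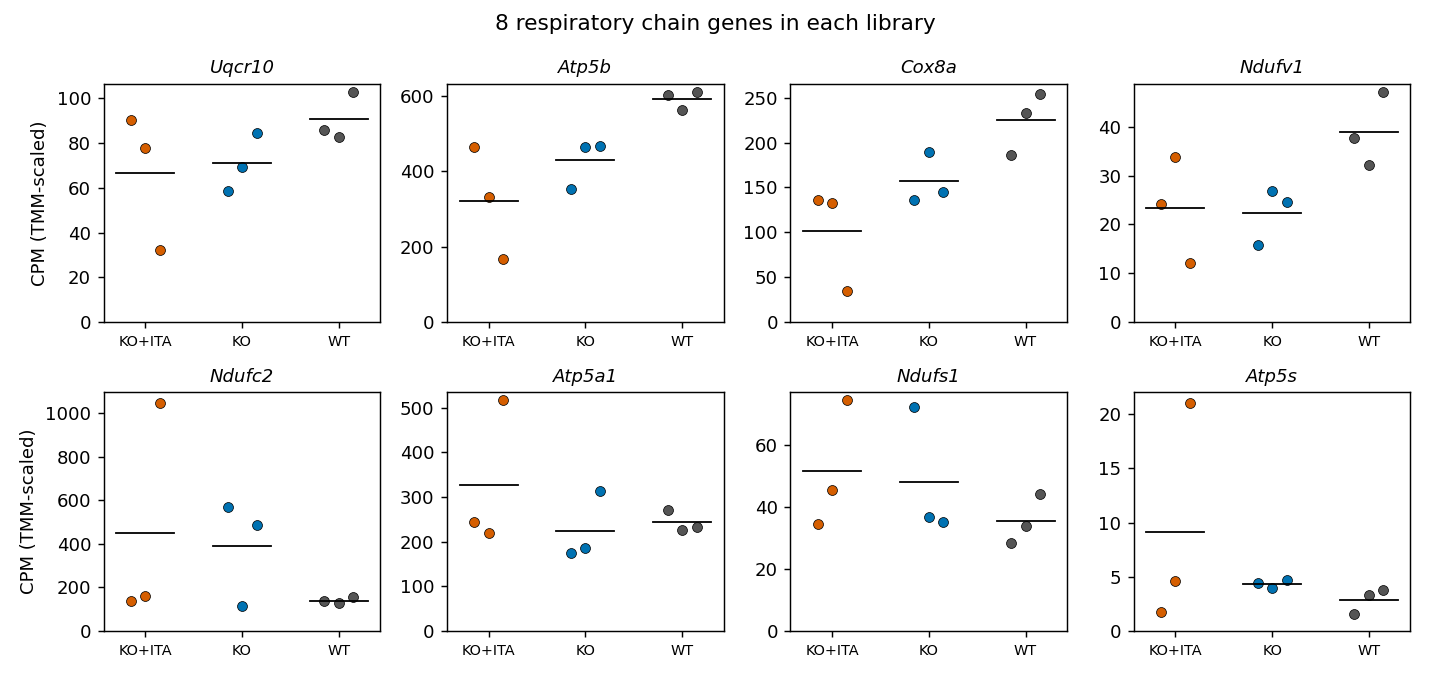
CPM scaled by TMM (vertical axes, from 0) of 8 members in the 3 groups (horizontal axes), with 1 point per library and the group mean as a line. Uqcr10, Atp5b, Cox8a and Ndufv1 are lowest in Irg1KO+ITA replicate 3, where Ndufc2, Atp5a1, Ndufs1 and Atp5s are highest.

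In complex III, 7 of the 8 tested subunits and all 3 Uqcc factors, which assemble cytochrome b, had a log2 fold change below 0 in Irg1KO against WT. Uqcc3 stood at 0.06 without WT replicate 1, whereas Uqcc1 and Uqcc2 stayed below 0 whichever library was left out. Uqcr10, a small subunit, had 90.2, 77.8 and 32.4 CPM in Irg1KO+ITA, 58.8, 69.5 and 84.5 CPM in Irg1KO and 86.1, 82.6 and 103 CPM in WT. Its groups overlapped through Irg1KO replicate 3 and Irg1KO+ITA replicate 1, and no other member's course lay nearer to the mean of the rest. Uqcrfs1, the Rieske iron-sulfur protein, had 72.8, 42.2 and 25.3 CPM in Irg1KO+ITA, 55.4, 58.7 and 74.2 CPM in Irg1KO and 73.5, 64.9 and 68.4 CPM in WT, and Cyc1, cytochrome c1, had 48.1, 46.1 and 18.5 CPM in Irg1KO+ITA, 32.5, 43.0 and 53.1 CPM in Irg1KO and 38.8, 52.6 and 63.8 CPM in WT. Both were lowest in Irg1KO+ITA replicate 3 and overlapped between groups. Uqcrc2, a core protein, hardly varied, with 123 to 171 CPM in Irg1KO+ITA, 142 to 152 CPM in Irg1KO and 128 to 155 CPM in WT. Uqcrc1, its partner, was listed at 0 in all 9 libraries. No overlapping gene or near-identical copy was found for it, and whether the 0 reflects its expression or the counting cannot be told from the files.

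Cytochrome c, the soluble carrier between complexes III and IV, was represented by Cycs, at 8.31, 7.68 and 6.98 CPM in Irg1KO+ITA, 8.85, 10.4 and 7.77 CPM in Irg1KO and 8.64, 7.34 and 10.6 CPM in WT. The 3 groups overlapped, and its log2 fold changes were 0.03 ± 0.32 for Irg1KO against WT and -0.24 ± 0.32 for Irg1KO+ITA against Irg1KO.

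In complex IV, the isoforms of general expression carried the reads and most tissue-restricted ones were near 0. Cox4i1, Cox6a1, Cox6b1 and Cox8a were tested with 34.2 CPM or more in every library. The lung isoform Cox4i2, the testis isoform Cox6b2 and Ndufa4l2 had at most 14 reads in a library and were below the filter, and Cox7b2, Cox8b and Cox8c were listed at 0 in all 9 libraries. Cox6a2 and Cox7a1, the heart and skeletal muscle isoforms, passed the filter with few reads. Cox7a1 had 1.48, 0.548 and 0.423 CPM in Irg1KO+ITA, 1.51, 1.66 and 2.76 CPM in Irg1KO and 5.76, 4.998 and 2.01 CPM in WT. Those values rest on 4 to 16 reads in Irg1KO+ITA libraries, 22 to 31 in Irg1KO and 15 to 64 in WT. Irg1KO+ITA lay below both other groups without overlap, but only narrowly below Irg1KO (1.48 against 1.51 CPM). The log2 fold change was -2.35 ± 0.68 against WT (adjusted p = 0.515) and -1.23 ± 0.68 against Irg1KO (adjusted p = 0.643).

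Cox8a, a small subunit of the general isoform, had 136, 133 and 34.2 CPM in Irg1KO+ITA, 136, 190 and 145 CPM in Irg1KO and 187, 233 and 255 CPM in WT. Irg1KO+ITA lay below WT in all libraries, by -1.15 ± 0.41 on the log2 scale (adjusted p = 0.524). Cox5a, a matrix-side subunit, was the exception in this complex, with 351, 278 and 261 CPM in Irg1KO+ITA, 113, 148 and 240 CPM in Irg1KO and 191, 192 and 256 CPM in WT. Its Irg1KO+ITA values lay above all others, narrowly above WT replicate 3, with 0.83 ± 0.31 against Irg1KO (adjusted p = 0.523) and 0.48 ± 0.31 against WT (adjusted p = 0.657). Cox7a2l, listed with this complex as a supercomplex factor, had 88.6, 85.6 and 45.6 CPM in Irg1KO+ITA, 60.2, 76.6 and 67.8 CPM in Irg1KO and 86.3, 87.5 and 83.2 CPM in WT. Supercomplexes were not measured. Irg1KO lay below WT in all libraries (-0.33 ± 0.29).

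In complex V, all 5 genes of the catalytic head had a log2 fold change below 0 in Irg1KO against WT. This depended on single libraries: Atp5a1 stood at 0.03 without Irg1KO replicate 1 and Atp5c1 at 0.13 without WT replicate 1. Atp5b stayed below 0 whichever library was left out (-0.53 to -0.34). Atp5b, the catalytic beta subunit and the member with the most reads, had 464, 332 and 169 CPM in Irg1KO+ITA, 355, 464 and 469 CPM in Irg1KO and 603, 562 and 611 CPM in WT. All 6 libraries labelled Irg1KO+ITA or Irg1KO lay below all those labelled WT, with -0.46 ± 0.33 for Irg1KO (adjusted p = 0.995) and -0.88 ± 0.33 for Irg1KO+ITA (adjusted p = 0.524). Atp5a1, the alpha subunit that alternates with beta in the head, had 245, 218 and 517 CPM in Irg1KO+ITA, 175, 185 and 312 CPM in Irg1KO and 271, 226 and 233 CPM in WT. It was highest in Irg1KO+ITA replicate 3, where Atp5b was lowest, and all groups overlapped. Without that library its Pearson r with the mean of the other members over the remaining libraries was 0.683.

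The c ring, which turns in the membrane, is encoded by 3 genes for the same mature subunit, and nearly all reads counted for it were those of Atp5g3. The count of Atp5g2 is uncertain, since another gene holds a near-identical stretch of 127 nt of its end and another gene entry overlaps it on the same strand. Its share of the c ring reads therefore cannot be told. Atp5g3 had 184, 175 and 94.0 CPM in Irg1KO+ITA, 89.8, 113 and 158 CPM in Irg1KO and 154, 159 and 218 CPM in WT, whereas Atp5g1 ranged from 0.952 to 3.73 CPM and Atp5g2 from 0 to 1.44 CPM. All 3 had a log2 fold change below 0 in Irg1KO against WT (-0.55 ± 0.32 for Atp5g3), though those of Atp5g1 and Atp5g2 rest on few reads. In the stalk, Atp5j, coupling factor 6, had 98.0, 69.7 and 21.9 CPM in Irg1KO+ITA, 118, 139 and 104 CPM in Irg1KO and 126, 165 and 139 CPM in WT. Irg1KO+ITA lay below both other groups without overlap, with -0.93 ± 0.41 against Irg1KO (adjusted p = 0.587) and -1.18 ± 0.41 against WT (adjusted p = 0.519). Atp5s, coupling factor B, had 1.75, 4.61 and 21.0 CPM in Irg1KO+ITA, 4.398, 3.93 and 4.72 CPM in Irg1KO and 1.56, 3.28 and 3.75 CPM in WT. Irg1KO lay narrowly above WT in all libraries (0.60 ± 0.68), and the Irg1KO+ITA mean was set by replicate 3.

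How closely a member followed the others was described by Pearson's r over the 9 libraries between its log2(CPM + 1) and the mean of the other members. The median r was 0.78 for the 78 members, with 59 of them (75.6%) above 0.5, beside 0.01 and 25.2% for the other 10703 tested genes. Without Irg1KO+ITA replicate 3 it was 0.57 for members (50 of 78 above 0.5, 64.1%) and -0.01 for the others (16.5%). The others include short transcripts and ribosomal proteins, whose r was not summarised apart. In Irg1KO+ITA replicate 3 the centred level was -0.47 for other non-ribosomal genes under 1000 nt (median). There it was -0.57 for cytosolic and -0.45 for mitochondrial ribosomal proteins (means), beside -0.61 for the members. Whether the likeness is particular to the respiratory chain was not tested. Uqcr10 (r = 0.982), Ndufa11 (0.978) and Ndufa8 (0.971), accessory subunits of complexes III and I, were nearest to the rest. Below 0 stood 7 members: Atp5s (-0.888), Ndufs1 (-0.802), Ndufc2 (-0.762), Atp5a1 (-0.554), Ndufb8 (-0.191), Atp5h (-0.180) and Ndufs4 (-0.015). Without Irg1KO+ITA replicate 3, Atp5a1 and Ndufb8 stood at 0.683 and 0.412, so their place among these depends on that library. Atp5s, Ndufs1 and Ndufc2 stayed below 0 (-0.522, -0.675 and -0.450). Other members joined them: 12 of 78 (15.4%) stood below 0 without that library, beside 7 (8.97%) over 9 libraries. Of the 11 complex III members, 3 stood below 0 without it and 0 over 9 libraries. The libraries share depth and composition, and no p is given for these values.

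**Figure D5:**
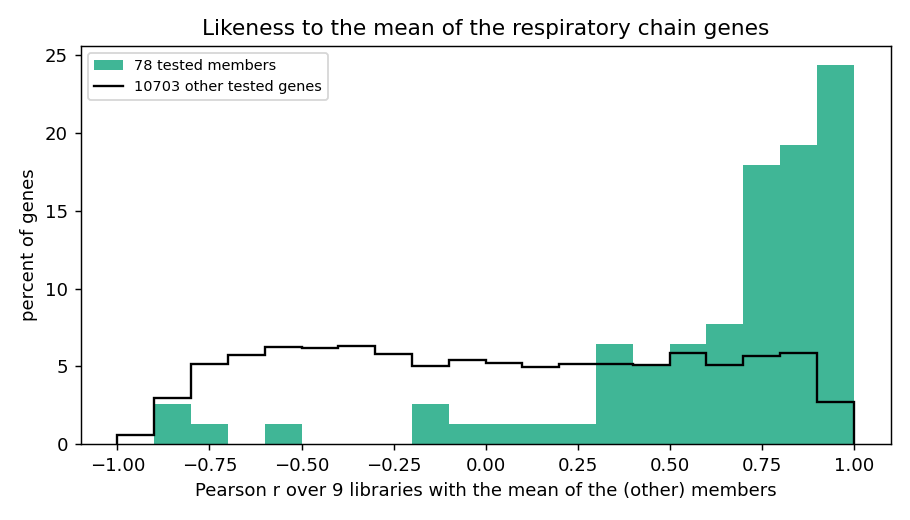
Percent of genes (vertical axis) by Pearson r over 9 libraries with the mean of the other members (horizontal axis), for the 78 tested members (green) and all other tested genes (black outline). Members gather near 1 with a median of 0.78, and 7 of them lie below 0. The other genes include short transcripts and ribosomal proteins, which are not drawn apart.

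Promoters were searched, for members of any course, for the sites of factors known to drive respiratory chain genes: NRF1 (GCGCA and GCGC with 1 base between them), GABP of the ETS family (CCGGAAG) and YY1 (AAGATGG), on both strands of the 250 bases before the start in RefSeq (GRCm38.p6). A promoter was found for 69 of the 85 members. An NRF1 match was in 12 of the 69 (17.4%), beside 10.1% of tested genes in the table and 4.23% of all genes in it. A GABP match was in 11 (15.9%, beside 17.1% of tested and 7.83% of all genes) and a YY1 match in 1 (1.45%, beside 5.46% and 5.18%). No NRF1 and GABP matches overlapped, and no GABP and YY1 matches overlapped in members. Below are Ndufb4, with the most NRF1 matches, and Cox6a1, with NRF1 and GABP matches, then Uqcr10, nearest to the mean of the rest, and Ndufc2, one of the members with r below 0, both without a match. Capitals mark matches, and CTTCCGG is the GABP motif on the opposite strand. A match is only a stretch of letters, and no match says nothing of the factor.
Ndufb4, minus strand, chr16:37654369-37654618: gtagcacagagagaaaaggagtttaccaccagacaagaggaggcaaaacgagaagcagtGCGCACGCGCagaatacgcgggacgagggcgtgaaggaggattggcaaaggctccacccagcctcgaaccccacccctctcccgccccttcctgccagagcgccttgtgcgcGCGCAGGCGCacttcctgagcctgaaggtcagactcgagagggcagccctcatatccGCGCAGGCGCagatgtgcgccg
Cox6a1, minus strand, chr5:115348959-115349208: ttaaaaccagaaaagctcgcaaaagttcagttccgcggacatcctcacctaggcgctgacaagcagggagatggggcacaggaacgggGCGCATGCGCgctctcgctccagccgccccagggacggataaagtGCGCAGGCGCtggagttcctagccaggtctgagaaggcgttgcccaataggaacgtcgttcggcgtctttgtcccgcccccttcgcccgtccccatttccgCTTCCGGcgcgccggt
Uqcr10, minus strand, chr11:4704345-4704594: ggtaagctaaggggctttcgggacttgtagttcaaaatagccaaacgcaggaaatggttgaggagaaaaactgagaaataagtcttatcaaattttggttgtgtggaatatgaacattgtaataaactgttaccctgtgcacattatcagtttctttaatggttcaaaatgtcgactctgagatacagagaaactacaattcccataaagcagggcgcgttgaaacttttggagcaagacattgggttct
Ndufc2, plus strand, chr7:97399753-97400002: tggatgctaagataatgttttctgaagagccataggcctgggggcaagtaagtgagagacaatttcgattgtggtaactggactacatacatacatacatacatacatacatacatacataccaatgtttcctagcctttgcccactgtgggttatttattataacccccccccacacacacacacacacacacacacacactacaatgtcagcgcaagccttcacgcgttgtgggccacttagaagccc

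Other genes of the same pathway were read from lists by function, set with earlier results of these data known, and none of them passed edgeR's test in any comparison. Complex II, the enzyme itaconate inhibits, had 3 of 4 subunits lower in Irg1KO than in WT (median -0.10) and 3 of 4 lower in Irg1KO+ITA than in WT (median -0.29). Sdhb, its iron-sulfur subunit, had 98.3, 63.7 and 34.3 CPM in Irg1KO+ITA, 74.1, 71.8 and 89.9 CPM in Irg1KO and 78.3, 98.2 and 84.2 CPM in WT, and the groups overlapped. Sdhd, the subunit that was higher, had 5.63, 7.24 and 7.61 CPM in Irg1KO+ITA, 3.71, 3.70 and 10.6 CPM in Irg1KO and 4.44, 3.20 and 3.61 CPM in WT. Its Irg1KO+ITA values lay above all WT values (0.87 ± 0.47, edgeR adjusted p = 0.595). Of 15 complex I assembly factors and related genes, 7 were lower in Irg1KO than in WT (median 0.03), and 10 lower in Irg1KO+ITA than in WT (median -0.60). Acad9, an assembly factor, had 32.0, 20.5 and 49.7 CPM in Irg1KO+ITA, 50.7, 40.3 and 28.5 CPM in Irg1KO and 20.3, 20.1 and 21.9 CPM in WT, with Irg1KO above WT in all libraries (0.94 ± 0.33, adjusted p = 0.995). Of 19 tested complex IV assembly factors, 11 were lower in Irg1KO than in WT (median -0.12). All 4 complex V assembly factors were lower there (median -0.46), among them Tmem70, with 21.9, 21.4 and 22.1 CPM in Irg1KO+ITA, 22.04, 22.8 and 19.98 CPM in Irg1KO and 28.7, 39.2 and 29.0 CPM in WT, where all libraries labelled Irg1KO+ITA or Irg1KO lay below those labelled WT.

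The inhibitor of the ATP synthase, Atpif1, whose newer symbol begins with Atp5, had 124, 94.2 and 91.0 CPM in Irg1KO+ITA, 170, 188 and 138 CPM in Irg1KO and 142, 166 and 144 CPM in WT, and Irg1KO+ITA lay below both other groups in all libraries. Among regulators of mitochondrial genes, Nrf1 and Gabpa had log2 fold changes of -0.09 ± 0.26 and 0.19 ± 0.30 in Irg1KO against WT. Yy1 had 150, 348 and 163 CPM in Irg1KO+ITA, 83.1, 149.9 and 131 CPM in Irg1KO and 118, 141 and 223 CPM in WT. Its Irg1KO+ITA values lay narrowly above all Irg1KO values and overlapped WT, with 0.86 ± 0.37 for Irg1KO+ITA against Irg1KO (edgeR adjusted p = 0.581) and -0.40 ± 0.37 for Irg1KO against WT. Ppargc1a, the PGC-1alpha coactivator, had at most 4 reads in a library. The 13 subunits encoded in mitochondrial DNA had a median of -0.36 in Irg1KO against WT (10 of 13 lower), -0.52 in Irg1KO+ITA against Irg1KO (11 of 13) and -0.84 in Irg1KO+ITA against WT (13 of 13). Cytosolic ribosomal proteins had medians of -0.20, -0.11 and -0.34 in the same 3 comparisons, and mitochondrial ribosomal proteins -0.15, -0.07 and -0.24, with 64, 58 and 71 of 85 and 55, 43 and 59 of 76 lower.

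The counts of 13 members are uncertain because another gene holds a near-identical copy of their last 500 nt (at least 97% over 100 nt or more), and the counter left out reads that align in several places. They are Ndufb4, Ndufb9, Ndufs3 and Ndufs5 of complex I, Uqcr11 and Uqcrb of complex III, Cox5b and Cox7c of complex IV and Atp5f1, Atp5g2, Atp5h, Atp5l and Atp5o of complex V. Atp5g2, Atp5o, Ndufb2, Ndufb8 and Ndufb9 also overlap another annotated gene entry on the same strand. Ndufs1, Cox5a, Atp5a1, Atp5f1, Atp5d and Atp5j are among those that overlap a gene on the opposite strand, and without the counter's strand setting reads of such pairs cannot be told apart.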

How the data were processed

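Messenger RNA of 9 libraries in 3 groups was sequenced from barcoded oligo-dT primers, per the labels' protocols, so reads lie near 3′ ends and do not scale with transcript length. No molecular identifier is mentioned. The authors deposited raw counts per gene in 1 table. The submitters' processing notes name STAR, HTSeq and mm10. Tool versions, annotation and strand setting are not given in the sources used here. Reads outside genes (23.1% to 33.7%) and with several alignments (17.1% to 20.0%) stayed out of library sizes. Floors and depth cover counting error only.

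Symbols came from GENCODE M21 (21745 of 22165 identifiers matched). The values of 1 member are not reported here. Members and lists were chosen with earlier results of these data known. Named members follow a rule: a fixed panel, the smallest p per complex and direction, groups without overlap, a call in any setting, isoform pairs, extremes of likeness, most reads, and those below the filter. Acad9, Tmem70, Atpif1, Sdhb, Sdhd and Yy1, outside the members, and the members Ndufa8, Ndufb4, Ndufs4 and Atp5h, outside the rule, were named after their values were seen. A number that precedes the barcode in the labels was taken as the pool, which no label defines.

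A single model of all 9 libraries, with no term but group, was fitted with edgeR 4.0.16 (R 4.3.3) (quasi-likelihood F test, two-sided, TMM scaling, filterByExpr at a minimum count of 10), with Benjamini-Hochberg adjustment over 10781 genes per comparison. CPM are TMM-scaled, and SE is the log2 fold change divided by the square root of F. Levels use a pseudocount of 1 CPM. On simulated counts with 100 genes changed 4-fold and 100 changed 2-fold, the test recovered 70 and 6 (Irg1KO against WT), 69 and 7 (Irg1KO+ITA against Irg1KO) and 71 and 4 (Irg1KO+ITA against WT), over 10592, 10600 and 10609 genes. The 21 other settings changed scaling, filter, tool (DESeq2 1.42.0, limma-voom 3.58.1), libraries, pool or replicate block.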

Additional observations from a re-analysis of the deposited data

How the results depend on the processing

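No result changed sign while called, since no member was called except Ndufc2 without a filter in Irg1KO+ITA against WT (1 member). Called genes numbered 1 by DESeq2 and 2 without the 4 doubtful libraries in Irg1KO against WT. In Irg1KO+ITA against Irg1KO they numbered 80 without a filter, 12 by DESeq2, 217 without the 4 and 0 to 6 when 1 library was left out. In Irg1KO+ITA against WT they numbered 92, 14, 1 and 0 to 4. In Irg1KO+ITA against Irg1KO the complex V median was 0.12, but -0.20 by limma-voom, -0.12 with a replicate block, 0.33 without the 4, and -0.36 to 0.13 when 1 library was left out. The members' median there was 0.18 without the 4. Cycs was 0.10 in Irg1KO+ITA against Irg1KO and 0.22 in Irg1KO+ITA against WT with the pool as a term, and -0.41 in the second without the 4. The complex I median in Irg1KO+ITA against WT was -0.61 to -0.15 when 1 library was left out. The cause of these shifts was not tested. Scaling by library totals alone moved the median of all genes to -0.11 in Irg1KO+ITA against WT, where the members' median was -0.39. Same-numbered libraries were not paired by the labels, and the correlations of their deviations were -0.16 to 0.24. With the replicate block the members' medians were -0.26, -0.10 and -0.33 in the 3 comparisons, and 65, 51 and 64 members were lower, with 0 called. In the simulated counts 2-fold changes were mostly missed. Those counts were drawn gene by gene at the fitted spread, without shifts of whole libraries, pools or doubtful labels. They therefore do not give the recovery in these data. A value within pool 1 exists for Irg1KO against WT only.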
